A study of Mus musculus with 4 samples.

Results

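The Id and E protein genes *Id1*, *Id2*, *Id3*, *Tcf3*, *Tcf4* and *Tcf12* were followed through single-cell RNA-seq of mouse bone marrow lymphoid progenitors. They are 6 of the 26421 genes listed in at least 1 of the 2 count tables, chosen by name, and all 6 were listed in both. The cells were αLPs (Lin−CD127+FLT3−LPAM-1+), sorted from C57BL/6 mice of 6 to 12 weeks. In each of 2 experiments both genotypes went into 1 run of TAS-Seq, a single-cell RNA-seq method, with cells caught on the BD Rhapsody system. WT cells carry an intact *Gata3* locus, and G3SEKO cells come from mice in which tandem super-enhancers near *Gata3* were targeted in the germline with CRISPR-Cas9, so every cell type of the mouse carries the change. Cells of several mice were pooled in each genotype and experiment. Since the labels name no animals, each genotype gave 1 sample per experiment (n = 2 per genotype). The labels of experiment 2 list both of its hashtags under WT. Hashtag A0303 was taken here as G3SEKO, a choice behind all G3SEKO values of experiment 2.

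E proteins are basic helix-loop-helix transcription factors. They bind the E-box motif as dimers and drive lymphocyte programs, those of B and T cells above all. Id proteins have the helix-loop-helix part but no DNA-binding part, so that they hold E proteins off DNA. *Id2* is required for innate lymphoid cells (ILCs) and marks their progenitors, while *Id3* is best known in T cells. *Tcf3*, *Tcf4* and *Tcf12* encode the 3 E proteins, and *Tcf4* is not the gene of the Wnt pathway factor that shares this name (*Tcf7l2*). In GRCm38 (GENCODE M21) the protein-coding genes lie at chr2:152736251-152737410 for *Id1*, chr12:25093799-25097140 for *Id2*, chr4:136143497-136145755 for *Id3*, chr10:80409514-80433647 for *Tcf3*, chr18:69343356-69689079 for *Tcf4* and chr9:71842688-72111871 for *Tcf12*.

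After the study's limits on reads per cell, 805 cells remained in experiment 1 (742 WT, 63 G3SEKO) and 7530 in experiment 2 (6080 WT, 1450 G3SEKO), and no cell was left out for its *Id2* level. Experiment 1 was the deeper per cell, with median reads of 388284.5 (WT) and 509047 (G3SEKO), while experiment 2 had 28341.5 and 39599. Reads on genes came to 375721226 (WT) and 47013772 (G3SEKO) in experiment 1, and to 242415948 and 79284320 in experiment 2. The kept cells of the experiments shared 7 barcode numbers. Cells were divided into exclusive gates by the first gene that reached a value of 1 on the scale of ln(1 + reads per 10000), in the order *Cd3e*, *Ccr6*, *Il1rl1* (ST2 of ILC2s), *Zbtb16* (PLZF of ILC progenitors) and *Icos*, and the rest form the gate "none". The Zbtb16+ gate held 104 WT and 23 G3SEKO cells of experiment 1, then 245 and 396 of experiment 2. The Icos+ gate held 83, 6, 652 and 342 in the same order, the Il1rl1+ gate 443, 2, 4128 and 55, the Ccr6+ gate 3, 2, 40 and 115, the Cd3e+ gate 18, 6, 35 and 65, and the gate "none" 91, 24, 980 and 477. Levels are given as CPM, the reads of a gene per 1000000 reads counted on genes, summed over the cells of a gate. Markers were in place for the main gates: in WT cells the 6 ILC progenitor genes summed to 4397 and 4534 CPM in Zbtb16+ cells against 318 and 199 in Il1rl1+ cells, and the 6 ILC2 genes to 149 and 437 against 2427 and 3113 CPM, where *Zbtb16* and *Il1rl1* are themselves gate genes. Reads of 1 molecule were not collapsed, so intervals cover counting error only.

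*Gata3*, the gene of the targeted enhancers, was measured first. Over all cells it stood at 1144 CPM (WT) and 427 CPM (G3SEKO) in experiment 1. Experiment 2 gave 969 and 376 CPM. Within gates the difference was smaller in Zbtb16+ cells (799 and 725, then 707 and 469) than in the gate "none" (860.5 and 146, then 769.6 and 261). The fitted log2 change was −0.34 ± 0.16 (SE) in Zbtb16+ cells, −0.88 ± 0.25 in Icos+ cells and −2.02 ± 0.30 in the gate "none", none of which passed edgeR's test over all genes (adjusted p = 0.998, 1 and 1). In Cd3e+ cells it was 0.92 ± 2.28 (adjusted p = 1), with 177 and 39.3 CPM in experiment 1 and 7.15 and 112 in experiment 2.

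*Id2* was read in every gate and was lowest in the Cd3e+ gate. In WT cells it was read at 3489.5 CPM in the Zbtb16+ gate, 2706 in the Icos+ gate, 2439 in the Il1rl1+ gate, 1582 in the gate "none" and 565 in the Cd3e+ gate in experiment 1. In experiment 2 the same gates gave 2689, 1759, 1765, 1460.3 and 214 CPM. The Zbtb16+ gate was the highest and the Cd3e+ gate the lowest in both experiments among the gates of at least 5 WT cells. In the Ccr6+ gate *Id2* stood at 2419.6 CPM in experiment 2, and at 1918 in the 3 cells of experiment 1.

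In WT cells *Id2* was lower in Cd3e+ than in Il1rl1+ cells by 2.27 on the log2 scale (−2.27 ± 0.35, edgeR's quasi-likelihood test, adjusted p = 0.0197), lower in 2 of 2 experiments (−2.11 and −3.05 in each alone). The test had 21503 genes, of which 5.85% were called in this comparison (1257 genes). No other gate differed from Il1rl1+ by the test for *Id2*: the log2 difference was 0.51 ± 0.33 in Zbtb16+ (adjusted p = 0.842), 0.06 ± 0.33 in Icos+ (adjusted p = 1), 0.46 ± 0.41 in Ccr6+ (adjusted p = 0.673) and −0.42 ± 0.33 in the gate "none" (adjusted p = 1). The Ccr6+ value comes from experiment 2 alone, since experiment 1 had fewer than 5 cells there. Of all genes tested, 0.186% were called in Zbtb16+ (40 genes), 0.126% in Ccr6+ (27 genes), 0.0093% in "none" (2 genes) and 0% in Icos+. In the Icos+ comparison edgeR called 0 genes, with 741 at an unadjusted p under 0.05, and DESeq2 called 211.

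Without the experiment as a block the adjusted p for *Id2* in Cd3e+ cells was 0.0649 (edgeR, log2 −2.12). The Cd3e+ gate carried the T lineage list, which is fixed partly by the gate itself. Its 8 genes summed to between 2470 and 4063 CPM in the 4 samples, against 61.4 to 622 CPM in Il1rl1+ cells. *Cd4* was at 0 in 3 of the 4 samples and *Cd8a* in 2. NK or ILC1 markers were at 1006 CPM in the WT cells of experiment 1 and 76.0 in those of experiment 2. The sort removed cells that stain for CD3e. What part these other cells have in the Id values was not tested. Fewer cells of a type and less RNA per cell cannot be told apart in a sum of reads.

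**Figure D1:**
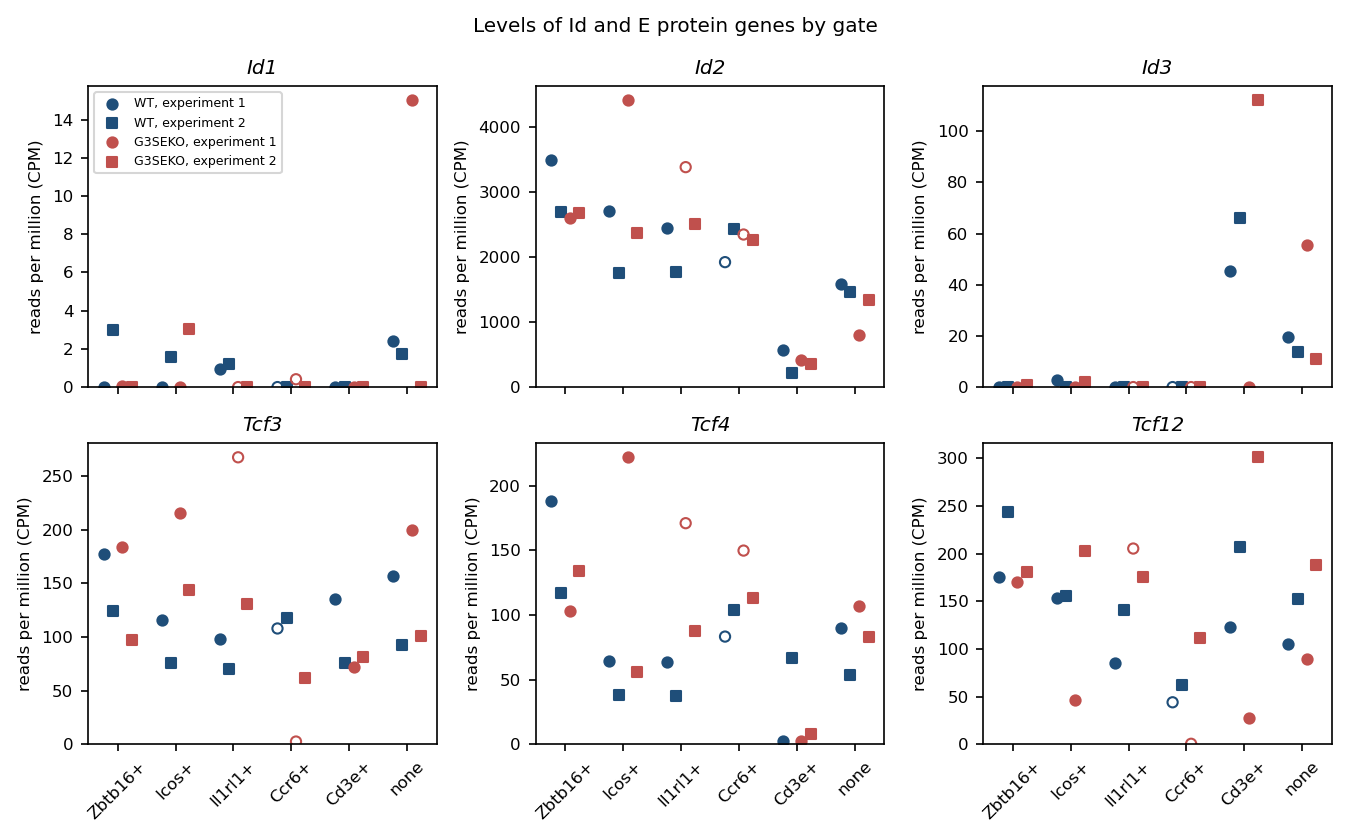
Level of each gene (CPM, linear axes from 0, each panel on its own scale) by gate, with WT in blue, G3SEKO in red, circles for experiment 1 and squares for experiment 2. Open symbols are gates of fewer than 5 cells. *Id2* was lowest in the Cd3e+ gate in all 4 samples, between 214 and 565 CPM, and *Id3* was above 10 CPM in the Cd3e+ gate and the gate "none" alone, except for the 0 reads of the G3SEKO Cd3e+ cells in experiment 1.

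The Cd3e+ gate also held the largest share of cells low in *Id2* in every sample, among gates of at least 5 cells. The study left out cells of low *Id2* but states no limit. Cells under a value of 1, a limit set here, were counted by gate, so the counts need not match the cells the study left out. In WT cells of experiment 1 they made up 6.73% of Zbtb16+ cells (exact binomial 95% interval 2.75 to 13.4), 3.84% of Il1rl1+ cells (2.25 to 6.07), 28.6% of the gate "none" (19.6 to 39.0) and 33.3% of Cd3e+ cells (13.3 to 59.0). In experiment 2 the values were 6.53% (3.78 to 10.4), 14.0% (13.0 to 15.1), 24.1% (21.4 to 26.9) and 80.0% (63.1 to 91.6). An *Id2* limit of this kind would take 28 of 35 WT Cd3e+ cells and 16 of 245 WT Zbtb16+ cells of experiment 2. Over all gates it would take 58 of 742 WT cells and 20 of 63 G3SEKO cells of experiment 1. In experiment 2 it would take 946 of 6080 and 290 of 1450.

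G3SEKO cells held larger shares of the gates that were low in *Id2*, and also of the Zbtb16+ gate, the highest in WT cells. The gate "none" was 12.3% of WT cells against 38.1% of G3SEKO cells in experiment 1, and 16.1% against 32.9% in experiment 2. The Cd3e+ gate was 2.43% against 9.52%, and 0.576% against 4.48%. The Zbtb16+ gate was 14.0% against 36.5%, and 4.03% against 27.3%. The Il1rl1+ gate went the other way, at 59.7% against 3.17% and 67.9% against 3.79%. These shares were not tested. Within the gate "none" 54.2% of G3SEKO cells (32.8 to 74.4) were under the limit in experiment 1 and 36.5% (32.1 to 41.0) in experiment 2. Myeloid markers differed between samples in the gate "none": their 6 genes summed to 1172 CPM (WT) and 17464 CPM (G3SEKO) in experiment 1, and to 723 and 36.3 CPM in experiment 2. *Mpo*, an enzyme of neutrophil precursors, reached 1373 CPM in the G3SEKO cells of experiment 1. The part of these cells in the *Id2* shares was not tested.

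**Figure D2:**
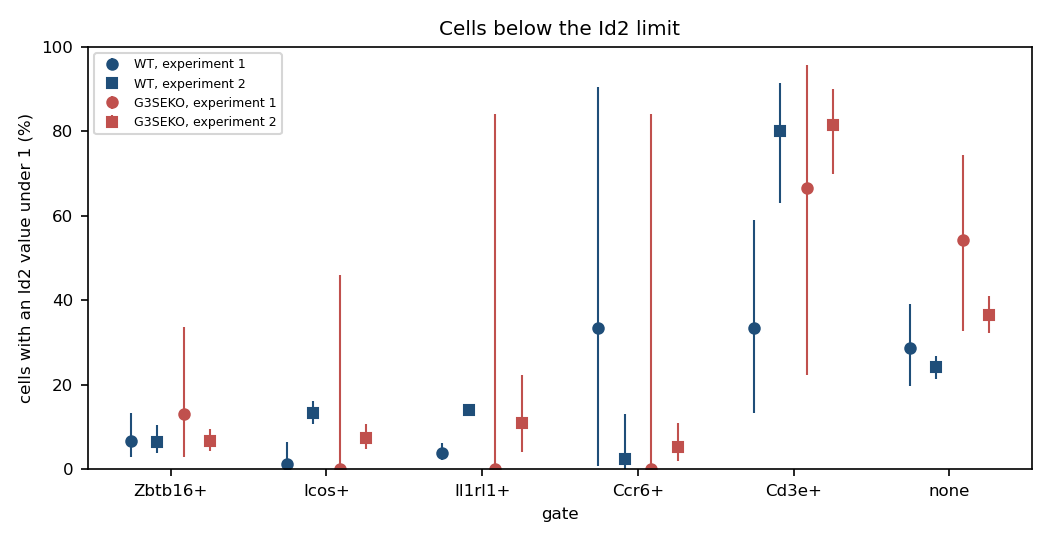
Share of cells (%) with an *Id2* value under 1 on the scale of ln(1 + reads per 10000), by gate, for each genotype and experiment. Bars are exact binomial 95% intervals, and those of the Ccr6+ and Il1rl1+ gates are wide where 2 or 3 cells were found. The Cd3e+ gate and the gate "none" stand above the Zbtb16+ gate in all 4 samples.

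Within the Zbtb16+ gate *Id2* was higher in the cells that also reached the gate value for *Icos*. Most Icos− cells of experiment 1 held some *Icos* reads below that value. In WT cells it stood at 3061 CPM in Icos− and 4438 in Icos+ cells of experiment 1, and at 2357 and 3039 in experiment 2. In G3SEKO cells the values were 2444 and 2856, then 2562 and 2795. The Icos+ cells had the higher value in 4 of 4 samples, with log2 differences from 0.13 to 0.54, and no test was made of this division. The 3 WT hashtags of experiment 1 gave the same order of Zbtb16+ over Il1rl1+ cells, at 3987 and 2570.4, at 3373 and 2268, and at 3150.2 and 2469 CPM. More WT mice than WT hashtags were used in experiment 1, so not every hashtag can mark a single mouse.

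*Id3*, which was near 0 in the ILC gates, was read in the Cd3e+ gate and the gate "none". WT Cd3e+ cells had 45.2 CPM in experiment 1 (340 reads, in 2 of 18 cells) and 66.1 CPM in experiment 2 (74 reads, in 5 of 35 cells). The WT gate "none" had 19.4 and 13.5 CPM. Il1rl1+ cells had 0.157 CPM (31 reads) and 0.0182 CPM (3 reads), and the Zbtb16+ cells 1 read in experiment 1 and 0 in experiment 2, where a floor of 3 reads is 0.184 CPM and the exact 95% upper limit of 0 reads is 0.226 CPM. The summed level was higher in Cd3e+ than in Il1rl1+ cells in both experiments, though most Cd3e+ cells had no *Id3* read. How many of all genes separate these gates in this way was not counted. In the Icos+ gate 134 reads of experiment 1 gave 2.88 CPM, 97.0% of them from 1 cell.

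In WT cells *Id3* was higher in Cd3e+ than in Il1rl1+ cells (edgeR, log2 10.33 ± 2.14, adjusted p = 0.0407), in 2 of 2 experiments. This log2 value depends on the few reads of the Il1rl1+ gate. The ratio of CPM was 288 in experiment 1 (95% counting interval 199 to 430) and 3637 in experiment 2 (1197 to 18040). The call did not hold with the stricter gate limit of 2 (adjusted p = 0.132, edgeR), among cells with an *Id2* value of at least 1 (adjusted p = 0.119) or without the block (adjusted p = 0.0546). A single cell held 88.2% of the *Id3* reads of the Cd3e+ gate in experiment 1 and 44.6% in experiment 2. In the gate "none" the log2 difference was 8.19 ± 1.96 (edgeR, adjusted p = 0.662), while DESeq2 called it (adjusted p = 0.000516).

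*Id3* and *Id2* were also counted in the same cells. An *Id3* value of at least 1 was found in 4 WT and 4 G3SEKO cells of experiment 1 and in 9 and 19 of experiment 2. Of these, 2 of 4, 3 of 4, 9 of 9 and 14 of 19 were under the *Id2* limit. Many of them came from gates low in *Id2*: in G3SEKO Cd3e+ cells of experiment 2 it was 5 of 8, where 53 of all 65 cells of the gate were under the limit. None of the WT Zbtb16+ or Il1rl1+ cells reached that *Id3* value in either experiment. Over the 11 WT sums, centred within experiment, log2(CPM + 1) of *Id2* and *Id3* had a Pearson r of −0.88, a description over sums that share libraries and in which the Cd3e+ gate holds the extreme values.

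*Id1* was hardly detectable. Its levels lay between 0 and 3.03 CPM in all gates of at least 5 cells but 1, the gate "none" of the G3SEKO cells in experiment 1, with 15.0 CPM (254 reads). A single cell carried 78.7% of those 254 reads and 98.9% of the 188 reads of the WT Il1rl1+ gate in experiment 1, while the 203 reads of that gate in experiment 2 came from 11 cells, with 19.2% in the top cell. *Id1* was called in no comparison, and its reads were too few to be tested between genotypes in Zbtb16+ and Cd3e+ cells.

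The 3 E protein genes were all read at higher levels in Zbtb16+ than in Il1rl1+ cells of WT mice. *Tcf3* stood at 178 against 98.5 CPM in experiment 1 and at 124 against 69.7 in experiment 2. *Tcf4* stood at 189 against 63.9 and at 117 against 37.5 CPM. *Tcf12* stood at 175 against 85.1 and at 243 against 141 CPM. The Zbtb16+ value was the higher one for each gene in 2 of 2 experiments. The share of all genes tested that were higher there in both experiments was not counted.

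The fitted log2 differences were 0.79 ± 0.27 for *Tcf3*, 1.56 ± 1.12 for *Tcf4* and 0.85 ± 0.25 for *Tcf12*, and none passed edgeR's test (adjusted p = 0.416, 0.894 and 0.330). In each experiment alone they were close to one another, at 0.85 and 0.83 for *Tcf3*, 1.56 and 1.64 for *Tcf4*, and 1.04 and 0.79 for *Tcf12*. DESeq2 called *Tcf3* (adjusted p = 0.0154) and *Tcf12* (adjusted p = 0.0193), in a comparison where it called 1167 genes. The median log2 difference of all genes tested was −0.04.

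The share of cells with a read had the same order once every cell was thinned to the same number of reads. It comes from the same reads and is no separate evidence. In WT cells of experiment 1, *Tcf3* was read in 44.2% of Zbtb16+ cells and 21.0% of Il1rl1+ cells, *Tcf4* in 43.3% and 14.9%, and *Tcf12* in 39.4% and 21.9%. In experiment 2 the shares were 31.4% and 11.7% for *Tcf3*, 24.5% and 7.78% for *Tcf4*, and 42.9% and 22.3% for *Tcf12*. At least 2 of the 3 genes were read in 39.4% of WT Zbtb16+ cells (exact 95% interval 30.0 to 49.5) and 9.03% of Il1rl1+ cells (6.53 to 12.1) in experiment 1, and in 24.9% (19.6 to 30.8) and 5.64% (4.96 to 6.39) in experiment 2. The same 2 gates had a median of 666168.5 and 364556 reads per cell in experiment 1 and of 48480.0 and 29658 in experiment 2 before thinning. Without thinning, *Tcf3* was read in 93 of 104 Zbtb16+ and 296 of 443 Il1rl1+ cells of experiment 1.

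**Figure D3:**
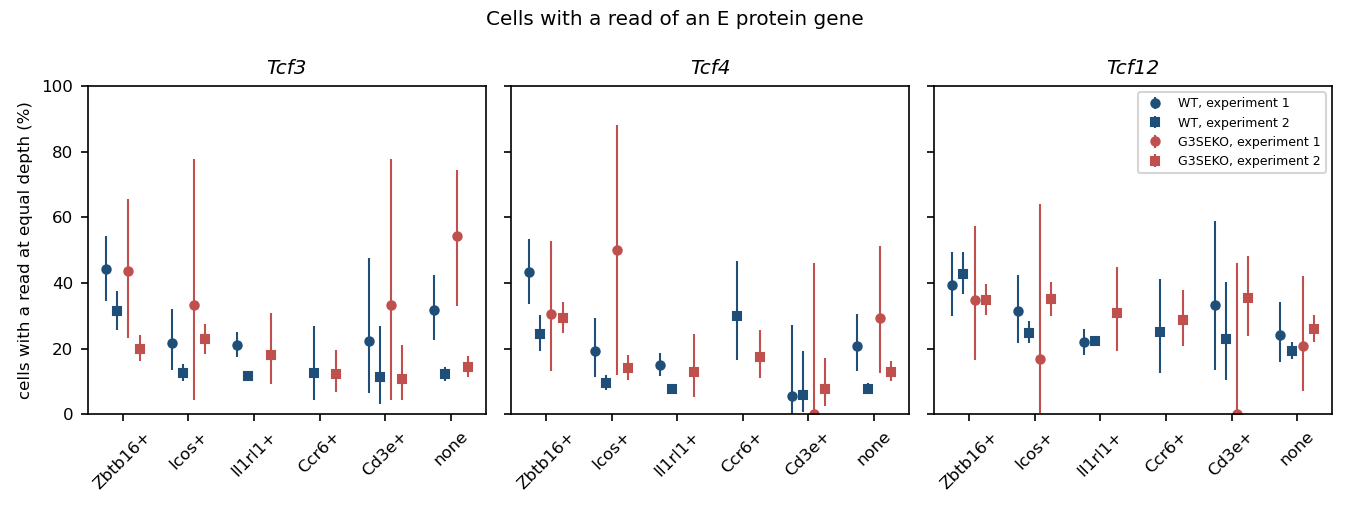
Share of cells (%) with at least 1 read of *Tcf3*, *Tcf4* or *Tcf12* after thinning every cell to the same number of reads, by gate, for gates of at least 5 cells. Bars are exact binomial 95% intervals, colours are genotypes and symbols experiments. In WT cells the Zbtb16+ gate lies above the Il1rl1+ gate for each gene in both experiments.

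The Icos+ gate resembled the Il1rl1+ gate for *Tcf3* and *Tcf4*. In WT cells *Tcf3* stood at 116 and 75.3 CPM and *Tcf4* at 64.3 and 37.8 CPM in experiments 1 and 2, with log2 differences from Il1rl1+ of 0.15 ± 0.26 and 0.00 ± 1.09 (edgeR, adjusted p = 1 for both). *Tcf12* stood at 153 and 155 CPM (log2 0.48 ± 0.25, adjusted p = 1). In the 40 Ccr6+ cells of experiment 2, *Tcf4* was at 104 CPM and *Tcf12* at 62.6 CPM, the lowest *Tcf12* value of the WT gates of that experiment (log2 −1.12 ± 0.33, edgeR, adjusted p = 0.226).

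In the Cd3e+ gate none of the 3 E protein genes passed the test. *Tcf12* stood at 123 and 206 CPM in WT cells (log2 0.74 ± 0.25 against Il1rl1+, edgeR, adjusted p = 0.156) and *Tcf3* at 135 and 76.0 CPM (0.51 ± 0.27, adjusted p = 0.330). *Tcf4* stood at 2.53 CPM in experiment 1 and 67.0 in experiment 2, and at 2.39 and 8.01 CPM in G3SEKO cells. A single cell held 97.3% of the *Tcf4* reads of the WT Cd3e+ gate in experiment 2. The fitted difference was −0.50 ± 1.21 (edgeR, adjusted p = 0.851). With the gate limit of 2 it was −4.56 ± 0.52 and called (adjusted p = 0.0127), as it was among cells with an *Id2* value of at least 1 (−4.47 ± 0.72, adjusted p = 0.0164), and in experiment 2 alone it was 0.83.

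Set side by side, the reads of *Id2* for each read of the 3 E protein genes were fewest in the Cd3e+ gate of WT cells. There were 2.17 in experiment 1 and 0.611 in experiment 2, against 9.86 and 7.11 in the Il1rl1+ gate, 8.13 and 6.55 in the Icos+ gate, and 6.44 and 5.55 in the Zbtb16+ gate. In WT cells the Zbtb16+ gate had the lower ratio than Il1rl1+ in both experiments although its *Id2* level was the higher, and its E protein reads summed to 542 against 247 CPM and to 485 against 248 CPM. In G3SEKO cells the order of these gates was the opposite, at 5.69 in Zbtb16+ against 5.25 in the 2 Il1rl1+ cells of experiment 1 and at 6.49 against 6.37 in experiment 2. The G3SEKO Cd3e+ gate had 4.10 and 0.898, and the gate "none" 2.02 and 3.58, so in experiment 1 the gate "none" was the lowest. Reads of different genes are not on 1 scale, and only the order over gates can be read. No test was made of it.

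Between genotypes no member passed the test in the 4 gates that could be tested, which were Zbtb16+, Icos+, Cd3e+ and "none". In the Zbtb16+ gate, *Id2* stood at 3489.5 CPM (WT) and 2598 CPM (G3SEKO) in experiment 1. Experiment 2 gave 2689 and 2667 CPM. The log2 change was −0.19 ± 0.12 for *Id2*, −0.13 ± 0.22 for *Tcf3*, −0.31 ± 0.33 for *Tcf4* and −0.21 ± 0.20 for *Tcf12* (edgeR, adjusted p = 0.998 for each). In experiment 1 alone *Tcf4* was at 189 CPM in WT and 103 in G3SEKO cells, and in experiment 2 at 117 and 134, so its direction was not the same. *Id3* had 1 read (WT) and 0 reads (G3SEKO) in this gate in experiment 1 and 0 and 26 in experiment 2, too few to be tested. In experiment 1 the 23 G3SEKO cells also held more myeloid reads (734 against 14.3 CPM in WT) and more of the proliferation genes (345 against 42.8 CPM), while in experiment 2 these lists stood at 1.04 against 2.82 and 125 against 120.3 CPM. Their part was not tested. Of 17121 genes tested in this gate, 0% were called by edgeR, with 367 at an unadjusted p under 0.05 and 55 called by DESeq2.

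In the Icos+ gate *Id2*, *Tcf3* and *Tcf4* had higher values in G3SEKO cells in both experiments. *Id2* stood at 2706 CPM in WT and 4413 in G3SEKO cells of experiment 1, and at 1759 and 2365 in experiment 2 (log2 0.59 ± 0.15, edgeR, adjusted p = 1). *Tcf3* stood at 116 and 216, then 75.3 and 143 CPM (0.94 ± 0.50, adjusted p = 1). *Tcf4* stood at 64.3 and 222, then 37.8 and 56.0 CPM (1.20 ± 0.68, adjusted p = 1). *Tcf12* went from 153 to 46.2 CPM in experiment 1 and from 155 to 203 in experiment 2. The G3SEKO sum of experiment 1 rests on 6 cells, 1 of which held 80.9% of its *Tcf3* reads.

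Of 16709 genes tested in the Icos+ gate, 0% were called by edgeR (297 at an unadjusted p under 0.05, and 12 by DESeq2). When no filter on low counts was used, edgeR called *Id2* (log2 0.57 ± 0.11, adjusted p = 7.41e-05) among 56 genes. *Il2ra*, which encodes CD25 of ILC2s, stood at 170 and 305 CPM in WT Icos+ cells and at 2.85 and 52.3 CPM in G3SEKO ones, but the sum of the ILC2 list went from 702 to 1570 CPM in experiment 1 and from 1249 to 990.3 in experiment 2. The ILC progenitor list went with genotype here too, from 1439 to 2572 CPM in experiment 1 and from 636 to 2227 in experiment 2, as did the LTi or ILC3 list, from 144 to 1091 and from 90.2 to 333 CPM. In cells low in *Il2ra* and *Il1rl1* the log2 change was 0.71 ± 0.13 for *Id2*, 0.89 ± 0.46 for *Tcf3* and 0.87 ± 0.68 for *Tcf4* (edgeR, adjusted p = 1 for each). The part of the other markers was not tested. The genotype change of *Id2* in Icos+ cells was compared with that in Zbtb16+ cells in a test added once the data had been seen. The difference was 0.76 ± 0.35 on the log2 scale (edgeR, adjusted p = 0.960). It was 1.05 ± 0.39 for *Tcf3*, 1.5 ± 0.93 for *Tcf4*, −0.45 ± 0.76 for *Tcf12*, 6.30 ± 3.51 for *Id1* and −6.20 ± 2.54 for *Id3* (adjusted p between 0.960 and 0.961), and 0% of 18640 genes were called (291 at an unadjusted p under 0.05). The *Id1* and *Id3* values lean on reads too few to be tested in Zbtb16+ cells alone. The Icos+ change of *Id3* was −5.69 in experiment 1 and 5.26 in experiment 2.

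The Il1rl1+ and Ccr6+ gates were not tested between genotypes, since G3SEKO cells of experiment 1 numbered 2 in each. In experiment 2 the 55 Il1rl1+ G3SEKO cells gave 2509.5 CPM of *Id2* against 1765 in WT cells, 130.3 against 69.7 of *Tcf3*, 87.8 against 37.5 of *Tcf4* and 176 against 141 of *Tcf12*. This gate depended on the hashtag call: it held 91 G3SEKO cells when hashtag reads gave the genotype, which takes in cells with no call in their name. In the 115 G3SEKO Ccr6+ cells of experiment 2, *Id2* stood at 2253 CPM against 2419.6, *Tcf3* at 61.4 against 118 and *Tcf12* at 112 against 62.6. The Il1rl1+ G3SEKO cells of that experiment also held *Zbtb16* at 292 CPM, against 29.6 in WT cells. From WT to G3SEKO, the ILC progenitor list went from 199 to 2564 CPM and the ILC2 list from 3113 to 1412. The LTi or ILC3 list went from 25.4 to 217 and the T lineage list from 61.4 to 288 CPM. Their part was not tested.

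In the gate "none" *Id2* stood at 1582 CPM in WT and 802 in G3SEKO cells of experiment 1, and at 1460.3 and 1329.8 in experiment 2 (log2 −0.51 ± 0.24, edgeR, adjusted p = 1). Beside the myeloid genes, other lists differed between genotypes in this gate: ILC2 genes went from 467 to 78.8 and from 1139 to 331 CPM, ILC progenitor genes from 1341 to 1345 and from 579 to 2036 CPM, and T lineage genes from 365 to 350.4 and from 124 to 466 CPM. Their part was not tested. *Id3* stood at 19.4 and 55.5, then 13.5 and 11.1 CPM (0.66 ± 0.80, adjusted p = 1). Of 17088 genes 0.0117% were called (2 genes). In Cd3e+ cells *Id2* stood at 565 and 414, then 214 and 350.1 CPM (0.24 ± 0.53, adjusted p = 1), and *Id3* at 45.2 and 0, then 66.1 and 112 CPM. Of 9529 genes 0% were called there by edgeR (186 at an unadjusted p under 0.05, and 69 by DESeq2).

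**Figure D4:**
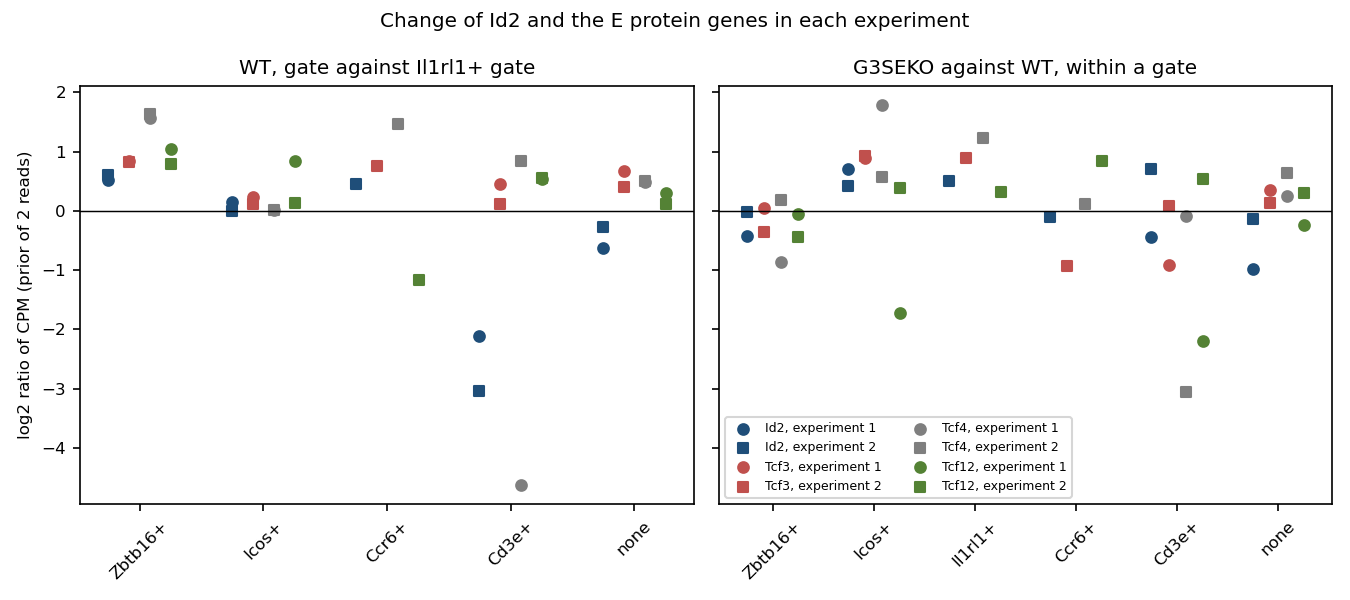
Log2 ratios of CPM (after adding 2 reads scaled to library size) in each experiment alone for *Id2*, *Tcf3*, *Tcf4* and *Tcf12*. Left, each gate against the Il1rl1+ gate in WT cells. Right, G3SEKO against WT cells within a gate. Circles are experiment 1, squares experiment 2, and gates with fewer than 5 cells in a sum are left out. The Zbtb16+ points lie between 0.52 and 1.64 on the left. In Cd3e+ cells the *Tcf4* points of the experiments lie far apart in both panels, at −4.63 and 0.83 on the left and at −0.08 and −3.06 on the right.

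Over single WT cells, members varied with little relation to one another. In the 4128 WT Il1rl1+ cells of experiment 2, thinned to equal depth, Pearson's r lay between −0.01 and 0.03 for all pairs of members with reads. In the 245 WT Zbtb16+ cells the largest value among *Id2* and the E protein genes was 0.16, for *Id2* and *Tcf4*, and in the 104 cells of experiment 1 the same pair gave 0.07. Small sets of G3SEKO cells went further: −0.41 for *Tcf3* and *Tcf12* in 23 Zbtb16+ cells (experiment 1), and −0.25 for *Id2* and *Tcf3* in 55 Il1rl1+ cells (experiment 2). In the 396 G3SEKO Zbtb16+ cells of experiment 2 all pairs with reads lay between −0.10 and 0.11. Counts at this depth are sparse: the median value of each E protein gene was 0 in both gates, while that of *Id2* was 3.15 in Zbtb16+ and 2.66 in Il1rl1+ cells of experiment 2.

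Other genes of the pathway were counted in lists, to be read beside the shares of all genes called, 0.186% in Zbtb16+ and 5.85% in Cd3e+ cells (253 higher and 1004 lower). Of 11 partners of E proteins and other Id genes, 10 were tested between gates. None was called in Zbtb16+ against Il1rl1+ cells, and 2 were lower in Cd3e+ cells: *Lmo4*, a LIM adaptor (log2 −2.92 ± 0.48, edgeR, adjusted p = 0.0222), and *Cbfa2t2*, a corepressor (−6.39 ± 1.16, adjusted p = 0.0274). The list's median was −2.50 there, beside −0.67 for all genes. Of 14 genes known as E protein targets in lymphocytes, 13 were tested. In Zbtb16+ cells 1 was higher, the chemokine receptor gene *Cxcr5* (8.63 ± 0.81, adjusted p = 0.0258), with a list median of 0.39 beside −0.04 for all genes. *Cxcr5* was also the 1 target called in Ccr6+ cells (9.32 ± 0.87, adjusted p = 0.0257), where the WT value is 1 sum of 40 cells from experiment 2, assumed to vary like the other gates.

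In Cd3e+ cells 2 of the 13 targets were higher: *Socs3*, a brake on cytokine signals (4.72 ± 0.84, edgeR, adjusted p = 0.0261), and *Foxo1* (2.66 ± 0.46, adjusted p = 0.0246). Of 10 genes that act upstream of Id genes or beside *Id2*, all were tested and 1 was called in each of the 2 gates, *Tcf7*, which encodes TCF-1 of early ILC progenitors (5.01 ± 0.52 in Zbtb16+, adjusted p = 0.0280, and 4.75 ± 0.52 in Cd3e+, adjusted p = 0.0117). The target list had a median of −0.76 in Cd3e+ cells, close to the −0.67 of all genes. *Tcf7* is also a marker in the ILC progenitor list. In the genotype comparisons no gene of the 3 lists was called, where 0% of all genes were called in Zbtb16+, Icos+ and Cd3e+ cells and 0.0117% in "none". Among cells with an *Id2* value of at least 1 no gene at all was called in Zbtb16+ or Ccr6+ cells, so the calls of *Cxcr5* in both and of *Tcf7* in Zbtb16+ cells did not hold there.

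The genes whose levels over the 11 WT sums were most like a member's are given as a description, among the 7759 (*Id2* and the E protein genes) or 7760 (*Id1* and *Id3*) other genes with a mean of at least 20 CPM. For *Id2* these were *B230219D22Rik*, *Zfp329* and *Hspa13* (Pearson r 0.99 for each). For *Tcf4* they were *Rp2*, *Klhdc2* and *Arhgef2* (0.98, 0.98 and 0.97), for *Tcf3* *Ciao2a*, *Cmas* and *Fbxo22* (0.96, 0.92 and 0.92), and for *Tcf12* *Trbc1*, *Kdm5b* and *Actr10* (0.94, 0.93 and 0.93). For *Id3* they were *Trdc*, a constant gene of the T cell receptor, *Sidt1* and *Edem1* (0.97, 0.96 and 0.96). For *Id1*, whose sums rest on few cells, they were *Gmpr2*, *Abcb10* and *Wdr5* (0.96, 0.89 and 0.89).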

How the data were processed

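αLPs from WT and G3SEKO bone marrow were measured in 2 experiments, where mRNA and hashtags were sequenced as separate libraries. The authors trimmed reads (Cutadapt) and mapped them to Ensembl GRCm38 (Bowtie2). The deposited values are raw counts, 1 for each read of a gene in a cell, not collapsed by molecule, and cell names carry the hashtag call. The deposited counts of hashtag reads gave the same genotype for all 805 and 7530 cells kept. Doublets were treated through the authors' hashtag calls alone, and no doublet caller was run. The kept cells had 83012 reads or more in experiment 1 and 6733 or more in experiment 2. The median depth per cell limits what a share of cells can show.

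Reads were summed per gate, genotype and experiment, and sums of at least 5 cells entered the quasi-likelihood test of edgeR 4.0.16 in R 4.3.3 (filterByExpr, TMM scaling, experiment as a block), with Benjamini-Hochberg adjustment over all genes tested and a threshold of 0.05. The pairing by experiment comes from the labels, since both genotypes of a number were combined in 1 run. Gates of WT cells were fitted together, genotypes gate by gate. A gene missing from 1 table was taken as 0. Values per cell and shares used cells thinned to 6733 reads. Tested on simulated counts, edgeR recovered 2.5% of 200 genes changed 4-fold and 60.5% changed 32-fold in Zbtb16+ against Il1rl1+ WT cells (20502 and 20386 genes), and 31.5% and 75.5% between genotypes in Zbtb16+ cells (16410 and 16518 genes), where 16% and 10.7% of the calls were false. A call missed by this test therefore says little about a 4-fold change.

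The rule named all 6 members in every comparison, and the text leaves out values of some members that passed no test. From the pathway lists the called genes were named, except 1 in Cd3e+ cells that is not reported here, and for each member the 3 genes of highest Pearson correlation over WT sums. The members and lists were chosen with earlier results of these data known. The alternatives were a gate limit of 2, thinned cells, DESeq2 1.42.0, RLE size factors, no filter, no block, each experiment alone, at most 10% mitochondrial reads, an *Id2* value of at least 1, genotypes from hashtag reads (a fold of at least 2), all gates in 1 fit, and cells with no *Mki67* or *Top2a* read. Cells low in *Il2ra* and *Il1rl1* (values under 0.1) and the test of Icos+ against Zbtb16+ were added after seeing the data. No test was run over single cells, which are not replicates. With the block, p-values measure how differences between gates or genotypes vary over the 2 experiments, not the spread between mice. In the fit of WT gates this spread is estimated over all gates together. No sequence is shown, since the RefSeq windows before the *Id2* and *Id3* starts overlap untranslated exons in GENCODE.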

Additional observations from a re-analysis of the deposited data

Results flagged for a closer look

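In 3 cases the G3SEKO change of a member had one direction in both experiments in one gate and the opposite direction in both experiments in another gate, and the difference between the gates was not tested. For *Id2* the mean log2 change in Icos+ cells exceeded that in the gate "none" by 1.12. For *Tcf4* the change in Icos+ cells exceeded that in Cd3e+ cells by 2.75, and the change in Cd3e+ cells was below that in the gate "none" (−2.01). The *Tcf4* values of the Cd3e+ gate rest on 19 and 7 reads in experiment 1 and on 75 and 19 reads in experiment 2 in WT and G3SEKO cells. In experiment 1 the *Tcf4* change in that gate was only −0.08.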

How the results depend on the processing

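The 2 calls of members, *Id2* and *Id3* in WT Cd3e+ against Il1rl1+ cells, kept their direction under every alternative run. Among the alternatives with a test *Id2* stayed called under all but the fit without a replicate block, and *Id3* under all but that fit, the gate limit of 2 and cells with an *Id2* value of at least 1. The pairing is by experiment: without the block 9 genes were called in Zbtb16+, 16 in Ccr6+ and 0 between genotypes in "none". Depth and cell number limit the rest: with 1 experiment left out no spread remains, so those values carry no test, and G3SEKO Icos+ and Cd3e+ sums of experiment 1 hold 6 cells each. The planned comparison of genotype changes in Zbtb16+ and Il1rl1+ cells was not run, since 2 G3SEKO Il1rl1+ cells were found in experiment 1.

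For the calls over all genes, DESeq2 gave 1167 in Zbtb16+, 211 in Icos+, 1834 in Ccr6+, 3914 in Cd3e+ and 327 in "none" against Il1rl1+, and 55 (Zbtb16+), 12 (Icos+), 69 (Cd3e+) and 183 ("none") between genotypes. Thinned cells gave 444 in Zbtb16+, 9 in Icos+, 448 in Ccr6+ and 41 in "none", then 21 (Icos+) and 94 ("none") between genotypes and 4 for Icos+ against Zbtb16+. With an *Id2* value of at least 1 there were 0 in Zbtb16+, Ccr6+ and "none", 2104 in Cd3e+, and 9 between genotypes in "none". The gate limit of 2 gave 18 in Zbtb16+, 16 in Ccr6+, 1949 in Cd3e+, 0 in "none" and 0 between genotypes in "none". No filter gave 11 in Ccr6+, 4 in "none", and 56 (Icos+), 4 (Cd3e+) and 7 ("none") between genotypes. One fit of all gates gave 18 (Cd3e+) and 0 ("none") between genotypes. In "none" between genotypes, cells low in *Il2ra* and *Il1rl1* gave 1, and cells under the mitochondrial limit or with no *Mki67* or *Top2a* read gave 0.

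Log2 differences that changed sign were uncalled in the report's own tests, and for all of them the cause was not tested. Against Il1rl1+ these were *Id1* in Zbtb16+ (0.32 without the block), *Id3* in Zbtb16+ (1.38, thinned), *Id3* in Icos+ (−1.52, gate limit 2), *Tcf4* in Icos+ (−0.014, *Id2* limit), *Id3* in Ccr6+ (1.65, DESeq2), *Tcf3* in Ccr6+ (−0.81, gate limit 2, and −0.13, thinned), *Tcf3* in Cd3e+ (−1.26, *Id2* limit), *Tcf4* in Cd3e+ (0.089, thinned), and in "none" *Id1* (−0.67, gate limit 2), *Id2* (0.026, *Id2* limit) and *Tcf12* (−0.065, *Id2* limit). Between genotypes they were *Id2* (0.019), *Tcf3* (0.29) and *Tcf12* (0.11) in Zbtb16+ at gate limit 2, *Id3* in Icos+ (−0.48 without the block, −0.40 in one fit), and in "none" *Id1* (2.05 without the block, 2.45 in one fit), *Tcf3* (−0.23, low *Il2ra* and *Il1rl1*), *Tcf4* (−1.15, *Id2* limit, and −0.0022, no *Mki67* or *Top2a* read) and *Tcf12* (−0.046, gate limit 2). For Icos+ against Zbtb16+ they were *Tcf3* (−0.16, gate limit 2) and *Tcf12* (0.19, thinned).

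With each experiment alone, the log2 difference from Il1rl1+ ran from −3.65 to 1.25 for *Id1* in Zbtb16+, from −4.15 to 0.33 for *Id1*, −0.0053 to 0.15 for *Id2* and −0.40 to 3.78 for *Id3* in Icos+, and from −4.63 to 0.83 for *Tcf4* in Cd3e+. Between genotypes it ran from −0.36 to 0.048 for *Tcf3* and −0.87 to 0.19 for *Tcf4* in Zbtb16+, from −5.69 to 5.26 for *Id3* and −1.73 to 0.39 for *Tcf12* in Icos+, from −0.45 to 0.71 for *Id2*, −9.64 to 0.76 for *Id3*, −0.91 to 0.091 for *Tcf3* and −2.19 to 0.54 for *Tcf12* in Cd3e+, and from −4.96 to 2.60 for *Id1*, −0.28 to 1.51 for *Id3* and −0.24 to 0.30 for *Tcf12* in "none".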
